A study of Schmidtea mediterranea with 6 samples.

Results

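The pmp genes examined were the 6 gene models of the planarian Schmidtea mediterranea that the study's tables name pmp-4, pmp-5, pmp-7, pmp-8, pmp-9 and pmp-10, post-mitotic progenitor genes. They are 6 of 30917 gene models counted and were taken by their identifiers from all 6 libraries. These names come from a list of epithelial progenitor markers, of which the study's table holds only genes that differed between the groups compared here. The members were thus chosen by their measured difference between exoc3(RNAi) and gfp(RNAi) libraries, and their changes are given as a description, without p-values.

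RNA was sequenced from X1 cells, the cycling, irradiation-sensitive cells that flow cytometry collects from dissociated animals by DNA content and cytoplasmic staining. Animals of the exoc3(RNAi) group (3 libraries) had received double-stranded RNA (dsRNA) against Smed-exoc3, a subunit of the exocyst, the complex that tethers secretory vesicles at the plasma membrane. Animals of the gfp(RNAi) group (3 libraries) had received dsRNA against gfp, which has no match in the planarian genome. All animals were starved asexual planarians of 5 to 5.5 mm, injected ventrally on 3 consecutive days and again on 3 days in a round that came 12 days later. The dsRNA was injected into the body, so depletion was not limited to X1 cells. The study described the libraries of each group as biological replicates.

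Neoblasts, the dividing stem cells of planarians, replace all tissues, and the epidermis takes a large share of their output. On the way to the epidermis, neoblast descendants stop dividing, move outwards and pass through a sequence of states marked first by genes of the prog family and later by agat genes. The pmp genes are used as markers of these post-mitotic cells. The study describes the markers of its list as high in post-mitotic cells and as expressed in neoblasts too. What the pmp proteins do is not annotated: for 6 of the 6 members the study's tables give no symbol, no description and no protein domain, and a published transcript is listed for pmp-10 alone.

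The libraries held 28897363 to 37525894 reads assigned to genes. Smed-exoc3 (SMESG000022604.1) was at 31.9, 31.2 and 42.5 CPM (reads per 1000000 assigned reads, with library sizes scaled by TMM, the normalisation of edgeR) in exoc3(RNAi) libraries, against 70.2, 74.0 and 72.7 CPM in gfp(RNAi) libraries. Its log2 fold change, exoc3(RNAi) over gfp(RNAi) as in all that follow, was -1.04 with a standard error (SE) of 0.09 (edgeR quasi-likelihood test, adjusted p = 5.7e-07). Replicate 3 of exoc3(RNAi) stood apart: the chi-square statistic per degree of freedom between libraries was 7.75 and 7.05 against replicates 1 and 2, compared with 1.36 between those 2. Of 14700 genes tested, 53% were called at an adjusted p under 0.05. Stem cell markers were abundant, with 8254 to 9037 CPM summed over 7 neoblast genes in exoc3(RNAi) libraries and 10636 to 10838 CPM in gfp(RNAi) libraries. Most of each sum came from smedwi-2 and smedwi-3. Of the 7 genes, 5 were called lower and 2 higher. The mitotic gene cyclin B was among the higher, at 137 CPM in exoc3(RNAi) and 119 CPM in gfp(RNAi) libraries on average.

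All 6 pmp genes were lower in exoc3(RNAi) X1 cells, to between 29.3% and 50.9% of their gfp(RNAi) means. Their reads together made up 446, 435 and 391 CPM in exoc3(RNAi) libraries, against 977, 958 and 951 CPM in gfp(RNAi) libraries. The summed level was 424 ± 29.2 CPM in exoc3(RNAi) and 962 ± 13.2 CPM in gfp(RNAi) libraries (SD, n = 3 each). Counts from a sorted fraction cannot tell fewer cells that express these genes from less of their RNA per cell.

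The most strongly affected member was pmp-4 (SMESG000042765.1). It was at 26.6, 27.1 and 23.0 CPM in exoc3(RNAi) libraries and at 88.0, 88.2 and 85.2 CPM in gfp(RNAi) libraries. These levels rested on 796 to 1009 reads per exoc3(RNAi) library and 2726 to 2837 reads per gfp(RNAi) library. All exoc3(RNAi) values lay far below all gfp(RNAi) values, and the log2 fold change was -1.77 (SE 0.05). The next was pmp-8 (SMESG000018472.1), with 74.3, 72.8 and 65.0 CPM in exoc3(RNAi) libraries and 212, 202 and 197 CPM in gfp(RNAi) libraries. It had 70.7 ± 4.96 CPM in exoc3(RNAi) and 204 ± 7.52 CPM in gfp(RNAi) libraries (SD, n = 3), and its log2 fold change was -1.53 (SE 0.05). No other member lost as much: pmp-4 and pmp-8 kept 29.3% and 34.7% of their gfp(RNAi) levels, and the remaining members kept 45.9% to 50.9%.

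Among the remaining 4 members the changes lay close together. The least abundant in reads was pmp-7 (SMESG000038687.1), with 16.1, 14.3 and 12.3 CPM in exoc3(RNAi) libraries and 31.6, 30.9 and 30.5 CPM in gfp(RNAi) libraries. For pmp-5 (SMESG000076927.1) the values were 81.8, 80.4 and 67.3 CPM in exoc3(RNAi) and 160.5, 163 and 163 CPM in gfp(RNAi) libraries. In both genes the gfp(RNAi) libraries nearly coincided and the exoc3(RNAi) libraries were spread, with replicate 3 lowest. For pmp-9 (SMESG000028420.1) the values were 127, 119 and 113 CPM in exoc3(RNAi) libraries, against 255, 243 and 243 CPM in gfp(RNAi) libraries. For pmp-10 (SMESG000027979.1) they were 121, 121 and 110.05 CPM in exoc3(RNAi) libraries, against 229.9, 229.9 and 232 CPM in gfp(RNAi) libraries. These were the members with the most reads, 3495 or more in every library, and their groups were far apart as well.

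The log2 fold changes of these 4 were -1.12 (SE 0.08) for pmp-7, -1.08 (SE 0.06) for pmp-5, -1.05 (SE 0.04) for pmp-9 and -0.98 (SE 0.04) for pmp-10. Neighbours in this order differed by no more than the sum of their standard errors, so the order of neighbours is not settled. Both pmp-7 and pmp-5 lay further from pmp-10 than that sum. These standard errors take no account of the genes sharing libraries. In the ratios within libraries, given below, pmp-5 was set apart from pmp-10 and pmp-7 was not. Without exoc3(RNAi) replicate 3 the log2 fold changes were -1.02 for pmp-7, -1.01 for pmp-9 and -1.0 for pmp-5, so the order of pmp-5 and pmp-9 changed. By contrast, pmp-4 and pmp-8 then stood at -1.70 and -1.47, still ahead of the rest. The group means of pmp-7 were 14.2 ± 1.86 CPM in exoc3(RNAi) and 31.0 ± 0.545 CPM in gfp(RNAi) libraries, and those of pmp-5 were 76.5 ± 7.99 CPM in exoc3(RNAi) and 162 ± 1.58 CPM in gfp(RNAi) libraries (SD, n = 3 each). In both genes, as in the next, the difference between the means was several times the larger SD. Since this contrast chose the members, that separation is a description only. The group means of pmp-9 were 119.6 ± 6.78 CPM in exoc3(RNAi) and 247 ± 6.55 CPM in gfp(RNAi) libraries, and those of pmp-10 were 117 ± 6.28 CPM in exoc3(RNAi) and 231 ± 1.19 CPM in gfp(RNAi) libraries.

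**Figure D1:**
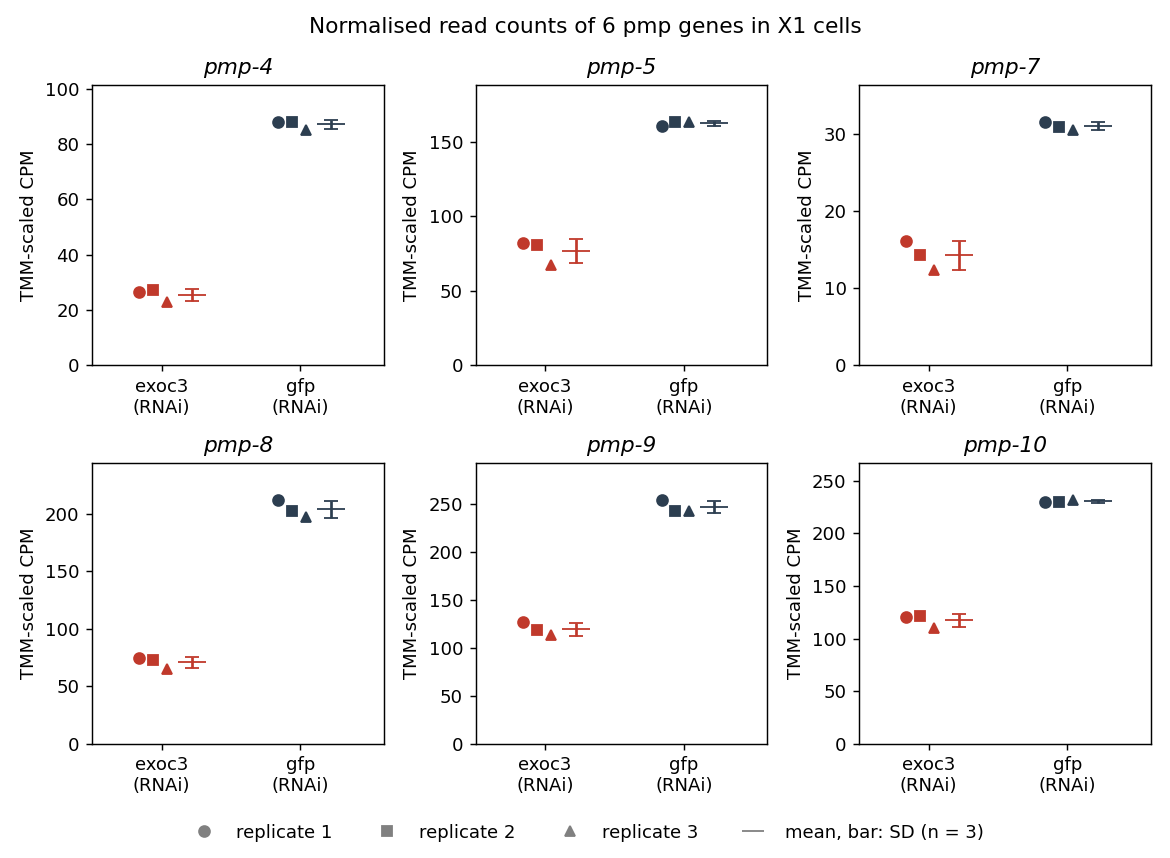
Normalised read counts (TMM-scaled CPM, axes from 0) of the 6 pmp genes in exoc3(RNAi) and gfp(RNAi) X1 libraries; symbols are single libraries, the line and bar are the mean and SD (n = 3). No panel has an exoc3(RNAi) library at the level of a gfp(RNAi) library, and the gap relative to the gfp(RNAi) level is widest for pmp-4, at 25.6 CPM against 87.1 CPM on average.

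The median log2 fold change of the 6 members was -1.10, compared with 0.02 over the 14700 genes tested. All 6 were called lower and none higher, while of all genes tested 27.1% were called lower and 25.8% higher. For 6 of 6 members the highest exoc3(RNAi) library was below the lowest gfp(RNAi) library, a pattern that 30.7% of all genes tested shared. Since the contrast chose the members, nothing is read from these counts.

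Ratios between members within a library do not depend on how libraries are scaled. Per 100 reads of pmp-10, pmp-4 had 22.0, 22.4 and 20.9 reads in exoc3(RNAi) libraries, against 38.3, 38.4 and 36.8 in gfp(RNAi) libraries. For pmp-8 the ratio was 61.5, 60.1 and 59.1 reads in exoc3(RNAi) libraries and 92.3, 87.9 and 85.1 in gfp(RNAi) libraries. The composition of the pmp reads differed between the groups, with less pmp-4 and pmp-8 for the same amount of pmp-10. Since pmp-10 changed least, a lower mean ratio of every other member follows from the log2 fold changes and is no separate result. For pmp-5 the ratio was 61.2 to 67.8 reads in exoc3(RNAi) and 69.8 to 71.1 in gfp(RNAi) libraries, a smaller shift without overlap. The ratios of pmp-7 and pmp-9 overlapped between the groups. That of pmp-7 was 11.2 to 13.3 reads in exoc3(RNAi) and 13.2 to 13.7 in gfp(RNAi) libraries. That of pmp-9 was 98.3 to 104.95 reads in exoc3(RNAi) and 104.88 to 111 in gfp(RNAi) libraries.

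As a share of the reads of all 6 members, pmp-4 made up 5.88 to 6.23% in exoc3(RNAi) libraries and 8.96 to 9.20% in gfp(RNAi) libraries. The share of pmp-8 was 16.6 to 16.7% in exoc3(RNAi) and 20.7 to 21.7% in gfp(RNAi) libraries. The reverse held for pmp-10, with 27.1 to 28.2% in exoc3(RNAi) and 23.5 to 24.4% in gfp(RNAi) libraries, since it lost the least.

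**Figure D2:**
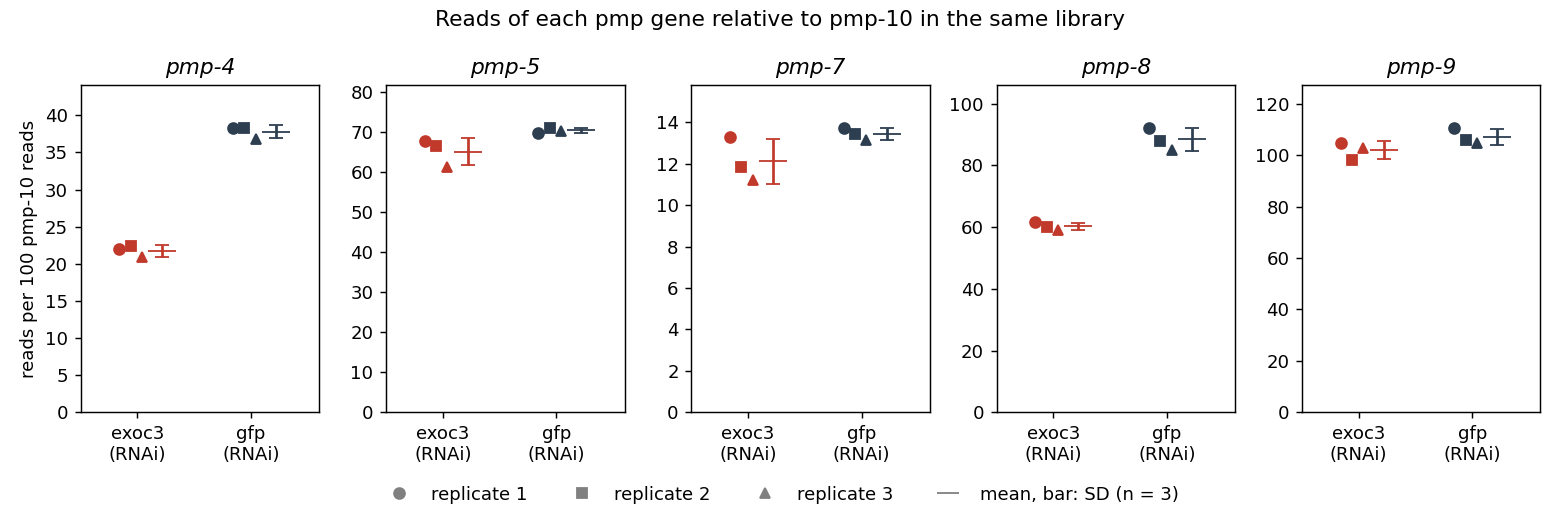
Reads of 5 pmp genes per 100 reads of pmp-10 in the same library (axes from 0), with single libraries as symbols and the mean and SD (n = 3) beside them. For pmp-4 (21.8 against 37.8 on average) and pmp-8 (60.2 against 88.4) the exoc3(RNAi) libraries lie well below the gfp(RNAi) libraries, whereas those of pmp-7 and pmp-9 overlap.

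The replicates of pmp genes lay closer together in gfp(RNAi) than in exoc3(RNAi), a description of 3 libraries a group that was not tested. In gfp(RNAi) libraries the coefficient of variation (CV, the SD as a percentage of the mean) was 0.516% for pmp-10, 0.973% for pmp-5, 1.76% for pmp-7 and 1.88% for pmp-4. The variance of these 4 genes was 0.197 to 0.991 times the variance that counting reads alone gives. Their gfp(RNAi) replicates therefore differed by no more than counting error. For pmp-9 and pmp-8 the CV was 2.65% and 3.69%, with a variance of 5.56 and 8.90 times counting variance, and replicate 1 was the highest library for both.

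In exoc3(RNAi) libraries the CV was larger for every member, from 5.35% for pmp-10 to 13.1% for pmp-7, with a variance of 6.62 to 28.1 times counting variance. The largest excess over counting error was that of pmp-5, whose CV was 10.4%. Among the 500 tested genes nearest in abundance to each member, the median CV was 3.28 to 4.65% in exoc3(RNAi) and 1.84 to 3.74% in gfp(RNAi) libraries. The residual dispersion of the edgeR fit placed pmp-5 at the percentile 97.4 of its 500 neighbours, pmp-7 at 94.2, pmp-8 at 91.4 and pmp-4 at 88.8. It placed pmp-9 at 76.2 and pmp-10 at 64. This dispersion pools both groups. In exoc3(RNAi) libraries the CV of every member was above the median CV of its neighbours, whereas in gfp(RNAi) libraries that of pmp-4, pmp-5, pmp-7 and pmp-10 was below it. Neighbours were matched on mean abundance over both groups, and the members were chosen as lower in exoc3(RNAi). Counting error alone is thus larger for them there: for pmp-4 it gives a CV of 3.40% in exoc3(RNAi) and 1.89% in gfp(RNAi). Part of this contrast with the neighbours therefore follows from the selection.

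In TMM-scaled CPM, replicate 3 was the lowest exoc3(RNAi) library for 6 of 6 pmp genes. The same held for 42.6% of all genes tested and 62.6% of genes called lower. Against the mean of replicates 1 and 2 on the log2 scale, replicate 3 stood at -0.30 for pmp-7, -0.27 for pmp-5, -0.22 for pmp-4, -0.18 for pmp-8, -0.14 for pmp-10 and -0.12 for pmp-9. For pmp-4, pmp-5, pmp-8 and pmp-10 replicates 1 and 2 lay close together and replicate 3 apart, whereas pmp-7 and pmp-9 had replicate 2 between the others. The same library held the most Smed-exoc3 mRNA of its group, 42.5 CPM, compared with 31.9 and 31.2 CPM. By TMM-scaled CPM, the exoc3(RNAi) library with the most remaining target mRNA was thus the one with the least of every pmp transcript. This order rests on 3 libraries, was not tested and depends on the scaling. As a percentage of the reads of the 7 neoblast genes, pmp-9 was at 1.41, 1.32 and 1.37% in replicates 1, 2 and 3, lowest in replicate 2. On that measure pmp-10 was nearly level, at 1.35, 1.34 and 1.33%. There pmp-4, pmp-5, pmp-7 and pmp-8 were still lowest in replicate 3.

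Markers of the same lineage were not uniform in this library. Of the other 14 epidermal progenitor genes, replicate 3 was lowest for 9 and highest for 3. The prog-1 gene (SMESG000024882.1) went the other way from the pmp genes, with 30.7 and 31.4 CPM in replicates 1 and 2 and 48.3 CPM in replicate 3, a difference of 0.63 on the log2 scale. The other 5 gene models of the prog-1 family were lowest in replicate 3, by -0.23 to -0.09. For agat-1 and agat-2, enzymes of the glycine amidinotransferase family that mark later epidermal progenitors, replicate 3 differed by only -0.03 each. It was also the lowest library for 7 of 7 neoblast genes, with a median difference of -0.13.

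**Figure D3:**
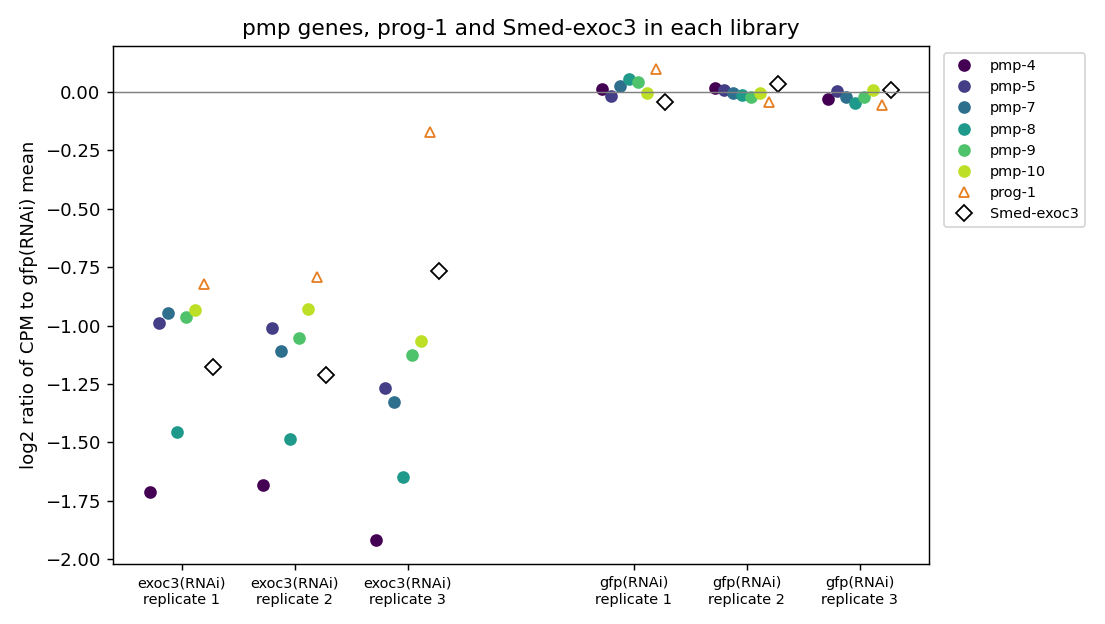
Log2 ratio of TMM-scaled CPM to the gfp(RNAi) mean in each library, for the 6 pmp genes (filled circles), prog-1 (triangles) and Smed-exoc3 (diamonds). In exoc3(RNAi) replicate 3 each pmp gene is at its lowest while prog-1 and Smed-exoc3 are at their highest of that group; for pmp-4 the values are -1.71, -1.68 and -1.92 in exoc3(RNAi) replicates 1, 2 and 3.

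By the shape of their profiles over the 6 libraries the members formed 3 pairs. The measure was the root mean square difference of log2 ratios to the gfp(RNAi) mean, which is 0 for identical profiles. The nearest member of pmp-5 was pmp-7 (0.05), and pmp-9 and pmp-10 were nearest to each other (0.06). The third pair, pmp-4 and pmp-8, was looser (0.17), and the farthest members were pmp-4 and pmp-10 (0.56). Because the difference between groups dominates these profiles, the pairs mainly repeat the order of the log2 fold changes.

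The same measure was used to find genes outside the epidermal progenitor list that resembled the mean profile of the 6 members, among 7682 genes with at least 10 CPM on average. The members themselves lay 0.10 (pmp-7) to 0.36 (pmp-4) from this mean, so a gene near the mean is not thereby near any member. The search also sets the log2 fold changes of the genes it finds, and those values are no separate result. The nearest was SMESG000072154.1, which the study's tables leave undescribed, with a difference of 0.03. It had 307 ± 18.2 CPM in exoc3(RNAi) and 746 ± 5.16 CPM in gfp(RNAi) libraries (SD, n = 3), with -1.28 (SE 0.04) as log2 fold change. Its level was thus above that of any pmp gene in reads. The second was a gene described as angiotensin I converting enzyme (SMESG000005710.1), a peptidase, with a difference of 0.04 and a log2 fold change of -1.22 (SE 0.07). The third was described as ornithine decarboxylase (SMESG000060777.1), the enzyme that opens polyamine synthesis, with a difference of 0.05. It had 34.8 ± 1.801 CPM in exoc3(RNAi) and 81.7 ± 1.99 CPM in gfp(RNAi) libraries and is a different gene model from odc-1. Among described genes the next was SMESG000062744.1, described as a product of the fly gene CG32262, with a log2 fold change of -1.24 (SE 0.06). Likeness in these libraries carries no information on shared function.

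A pair of listed pmp gene models is not among the 6. The gene pmp-6 (SMESG000042787.1) had 94.1, 97.7 and 89.7 CPM in exoc3(RNAi) libraries, against 189, 173 and 179 CPM in gfp(RNAi) libraries. The edgeR test gave -0.94 with an SE of 0.04 on the log2 scale (adjusted p = 3.1e-09). The study's table also gives the name pmp-7 to a second gene model (SMESG000038673.1), assigned to the same transcript as the first. This second model had 7.53, 7.42 and 6.65 CPM in exoc3(RNAi) libraries and 12.9, 13.9 and 12.9 CPM in gfp(RNAi) libraries, and the edgeR test gave -0.88 with an SE of 0.08 (adjusted p = 8.7e-07). Both were lower in exoc3(RNAi) by about the amount of pmp-10, from which they differed by no more than the sum of the standard errors. The second pmp-7 model differed by more than that sum from the first, which stood at -1.12 (SE 0.08). The size of the change of pmp-7, and its place among the members, thus depend on the model. Only uniquely aligned reads were counted, so reads that fit both pmp-7 models were lost and the level of pmp-7 is uncertain. Per 100 reads of the first model the second had 46.9, 51.8 and 53.9 reads in exoc3(RNAi) libraries, against 40.8, 45.1 and 42.3 in gfp(RNAi) libraries, without overlap.

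Beside the 6 members the epidermal progenitor list held 14 gene models, pmp-6 and the second pmp-7 model included, of which 14 were called lower and none higher (edgeR quasi-likelihood test, adjusted p up to 0.0023), with a median log2 fold change of -0.95. The study chose this list on these libraries, so the count is not independent evidence. The 6 gene models of the prog-1 family, markers of early progenitors, ranged from -1.22 for prog-1-6 to -0.56 for prog-1, with a median of -0.99. The agat genes stood at -1.07 for agat-2 and -1.05 for agat-1, and odc-1, an ornithine decarboxylase, at -1.14. None of the 14 reached the change of pmp-4 or pmp-8. The transcription factor p53 (SMESG000078256.1) changed least, by -0.26 (SE 0.05), and stood at 0.05 with libraries scaled to 7 neoblast genes.

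Within libraries the 6 pmp genes together had 76.9 to 85.7 reads per 100 reads of agat-1 and agat-2 in exoc3(RNAi), against 88.4 to 90.8 in gfp(RNAi). Per 100 reads of the prog-1 family they had 128 to 142 in exoc3(RNAi), against 153 to 159 in gfp(RNAi). Neither pair of ranges overlapped, but the difference lay in pmp-4 and pmp-8. These genes had 17.3 to 19.4 reads per 100 agat reads in exoc3(RNAi) libraries, against 26.4 to 27.9 in gfp(RNAi) libraries. The other 4 members had 59.6 to 66.3 reads per 100 agat reads in exoc3(RNAi) and 61.6 to 62.9 in gfp(RNAi) libraries, and each of these 4 overlapped between the groups, also per read of the prog-1 family. Relative to these epidermal markers, then, pmp-4 and pmp-8 were lower in every exoc3(RNAi) library, while pmp-5, pmp-7, pmp-9 and pmp-10 were not set apart.

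The 7 neoblast genes had smaller log2 fold changes, in both directions. Of these, 5 were called lower and 2 higher (edgeR, adjusted p up to 0.0043), with a median log2 fold change of -0.18 and a range from -0.48 for smedwi-2, a piwi gene of neoblasts, to 0.25 for vasa-2, an RNA helicase. With libraries scaled to the sum of these 7 genes, smedwi-3, vasa-1 and soxP-1 changed direction, to 0.04, 0.12 and 0.12. Per 100 reads of the 7 neoblast genes the pmp genes had 4.98, 4.81 and 4.74 reads in exoc3(RNAi) libraries, against 9.01, 8.88 and 8.94 in gfp(RNAi) libraries. The lower pmp level was thus also seen relative to stem cell transcripts of the same library.

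**Figure D4:**
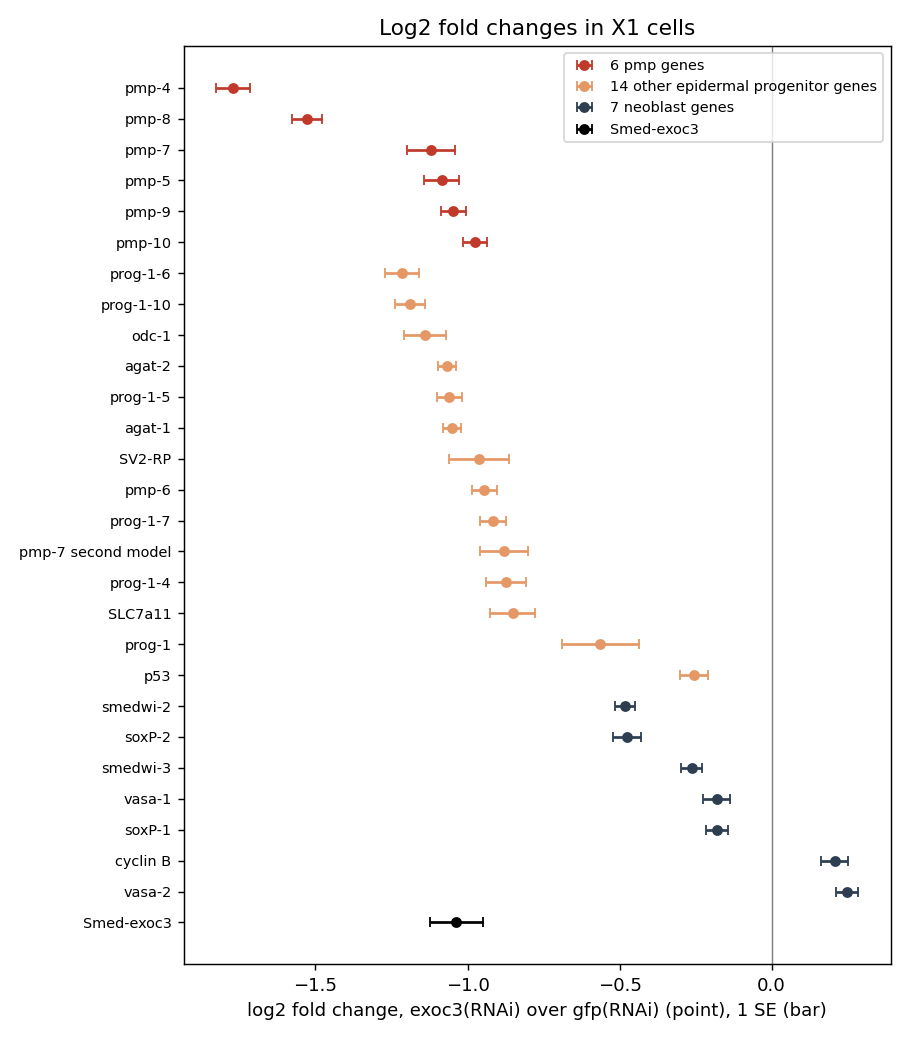
Log2 fold changes, exoc3(RNAi) over gfp(RNAi), with 1 SE from the edgeR fit, for the 6 pmp genes, the 14 other epidermal progenitor genes, the 7 neoblast genes and Smed-exoc3. Values of pmp-4 (-1.77) and pmp-8 (-1.53) lie below all others shown, and the neoblast genes lie between -0.48 and 0.25.

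Genes listed here as markers of other cell types moved between the groups as well, and their part in the pmp values was not tested. The lists were drawn up with earlier results of these data known, so the counts called are no independent evidence. Of all genes tested, 25.8% were called higher and 27.1% lower. The phagocytic cell list held lysosomal genes: CTSA, a second CTSA model, CTSB and NPC2. Whether they mark a cell type in these libraries was not tested. These genes (4 of 4 called higher) summed to 50.5 to 60.3 CPM in exoc3(RNAi) and 23.1 to 26.3 CPM in gfp(RNAi) libraries. Gut markers (3 of 3 called lower) summed to 28.7 to 31.5 CPM in exoc3(RNAi) and 43.7 to 45.0 CPM in gfp(RNAi) libraries. Muscle markers (1 of 3 called higher, 2 lower) summed to 159 to 166 CPM in exoc3(RNAi) and 179 to 182 CPM in gfp(RNAi) libraries. The higher gene was myosin heavy chain A, at 50.9 CPM in exoc3(RNAi) and 31.1 CPM in gfp(RNAi) libraries on average. MYH15, lower here, was not called with libraries scaled to the neoblast genes (log2 fold change -0.06, edgeR adjusted p = 0.21). Neuron markers (2 of 4 called higher, 2 lower) summed to 419.6 to 443 CPM in exoc3(RNAi) and 414 to 421 CPM in gfp(RNAi) libraries. SYN2 and SNAP25, lower here, were not called with libraries scaled to the neoblast genes. Their log2 fold changes were then 0.07 and 0.02 (edgeR adjusted p = 0.17 and 0.79). Prohormone convertase 2 was not called without exoc3(RNAi) replicate 1 (edgeR adjusted p = 0.060). None of these markers was at 0 in any library, so the sorted fraction of both groups held their transcripts.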

How the data were processed

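The deposited files are raw counts per gene model, made by the authors with bcl2fastq 1.8.4, STAR 2.7.2b on the genome assembly dd_Smes_g4 and featureCounts 1.6.5 on uniquely aligned reads of the reverse strand; reads with several positions or genes were not counted, so levels of near-identical genes are uncertain. Groups and replicate numbers came from the sample titles. The counts were analysed here in R 4.3.3 with edgeR 4.0.16: filterByExpr with a minimum count of 10 kept 14700 of 30917 gene models, libraries were scaled by TMM, and the exoc3(RNAi) group was tested against the gfp(RNAi) group with the two-sided quasi-likelihood F test over 6 libraries without covariate, with Benjamini-Hochberg adjustment over all genes tested and a threshold of 0.05. Each SE is the size of the log2 fold change divided by the square root of F. Profiles used log2 CPM with a prior count of 2. Named genes are the 6 members, Smed-exoc3, the study's epidermal list, 7 neoblast genes and the muscle, neuron, gut and phagocytic cell lists. By the distance given in the text, the 2 nearest genes and the 3 nearest with a description were added, of which 1 counts under both. The members and lists were chosen with earlier results of these data known. The study's tables gave names only; they also hold its own fold changes and p-values, which were not used. Alternatives were DESeq2 1.42.0, other scalings and filters, single libraries left out and a replicate block. The fitting step was tested on simulated data. Sequences, lengths and coordinates were not analysed here.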

Additional observations from a re-analysis of the deposited data

How the results depend on the processing

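All 6 pmp genes kept their lower level under 12 alternatives, and all 6 were called lower in each. In the main fit 27.1% of all genes tested were called lower. The same libraries chose the members, so these counts describe the processing and are not independent evidence of a lower level. With single libraries left out, their median log2 fold change was -1.18 to -1.01, compared with -1.10 over all libraries, and that of pmp-4 was -1.81 to -1.70. Scaling libraries to the 7 neoblast genes moved the log2 fold change of all genes by a median of 0.30 and the pmp genes with them, to -1.47 for pmp-4, -1.23 for pmp-8, -0.82 for pmp-7, -0.79 for pmp-5, -0.75 for pmp-9 and -0.68 for pmp-10, with a median of -0.81. It also left 14.4% of called genes lower, compared with 51.2% under TMM, and called 12 of the 14 other epidermal genes lower (not prog-1, with an edgeR adjusted p of 0.20, nor p53, with 0.58) and 6 of the 7 neoblast genes. Under the filter of 10 CPM in 3 libraries 13 of the 14 were called, because SV2-RP was no longer tested. Over all alternatives 5612 to 9580 genes were called, compared with 7784 of 14700 tested in the main fit. The lowest count was of 7817 genes tested under the 10 CPM filter, the highest of 14700 tested with scaling to the neoblast genes. These counts therefore do not compare as shares. Same-numbered libraries did not deviate together (correlations of -0.0083, 0.014 and -0.026), which is no sign of pairing. With the replicate block the median of the pmp genes was -1.11 and 7642 genes were called. Depth did not limit the members, which had at least 421 reads in every library, but with 3 libraries a group the spread of single genes is itself uncertain.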
